A study of Arabidopsis thaliana with 14 samples.

Results

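The comparison described here set 3 arrays of Ler control seedlings against 3 arrays of C24 control seedlings, which together are 6 of the 14 arrays of a study of YODA, a MAP kinase kinase kinase that limits entry into the stomatal lineage. The members were chosen by their labels alone. The Ler arrays came from unmutated seedlings of the Ler ecotype, and the C24 arrays came from a control line, CS9159, in the C24 ecotype. The remaining 8 arrays were used as further readings. Of these, 4 came from NdelYDA seedlings, which carry an N-terminal deletion form of YODA (NB89) and which some labels place in the Ler ecotype and describe as having no stomata, and 4 came from yda seedlings, for which no label names an ecotype. All seedlings were taken whole at 7 days post germination. The labels do not give the promoter of the deletion form or the yda allele. They number the mutant arrays as biological replicates, whereas the control arrays carry only a number, so the spread behind a p-value between the controls is that of these arrays and could in part be technical.

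Natural accessions of Arabidopsis differ in which alleles of many genes they carry, and some loci are missing or broken in one accession and active in another. Genes for defence are known for such variation, among them the enzymes that modify glucosinolate side chains, the clusters that make triterpenes, and the immune receptors of the NLR class, in which a nucleotide-binding domain is joined to leucine-rich repeats and often to a TIR domain. The probes of this array type were designed on Columbia, another accession, so a lower intensity in 1 accession and poorer binding of its transcript to the probe cannot be told apart here. In whole seedlings, fewer cells of a type and less RNA per cell cannot be told apart either.

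Values are probe set intensities on the scale of the deposited file, and differences are in log2 units of intensity plus 16, which understates differences that involve low signals. Arrays of Ler correlated with each other at 0.987 to 0.989 over log2 intensities and arrays of C24 at 0.968 to 0.984, with C24 replicate 1 the one that stood furthest from its group. Correlations of Ler with C24 arrays lay between 0.914 and 0.932. For the ubiquitin control probe sets, the ratio of the 3′ to the 5′ signal was 1.28 ± 0.0815 in Ler and 1.9 ± 0.204 in C24 (SD, n = 3 each), without overlap. The same ratio for the actin controls ran the other way, from 1.89 to 5.99 in Ler and from 0.306 to 1.12 in C24. For GAPDH it overlapped, at 1.05 to 1.11 in Ler and 1.02 to 1.46 in C24. The part of these differences in control signal in the results below was not tested. Rubisco activase (RCA), a marker of leaf mesophyll, was at 10297.3, 11459.8 and 10265.6 in Ler and 10241.2, 12342.7 and 11253.1 in C24.

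Of 17210 probe sets tested, 6399 (37.2%) differed between Ler and C24 at an adjusted p under 0.05 with limma. Of these, 3617 (21.0% of those tested) were higher in Ler and 2782 (16.2%) were lower. When the arrays were scaled to a common median instead, the split turned to 2892 higher and 3180 lower, so small differences carry no firm majority direction. At a fold of at least 2, 1195 probe sets (6.94%) were called, of which 487 (2.83%) were higher and 708 (4.11%) lower in Ler. In 1181 probe sets (6.86%) a call at that fold came with arrays of Ler and C24 that did not overlap, and such arrays were found in 46.2% of all probe sets when neither a call nor a fold was asked for. The median difference over all probe sets was 0.06, against a median standard error of 0.125.

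The mutant arrays gave a second reading of these differences, because NdelYDA and yda share no array with Ler and C24. That reading also holds the difference between the mutants themselves, and it takes yda as the counterpart of C24, which its labels do not state. Between NdelYDA and yda, 10207 probe sets (59.3%) were called, 33.6% higher and 25.7% lower in NdelYDA, and 12.1% were called at a fold of at least 2, 6.58% higher and 5.56% lower. A call in that comparison was therefore common. Of the 1195 probe sets that differed at least 2-fold between Ler and C24, 967 were called in the same direction between NdelYDA and yda, 81 in the opposite direction and 147 were not called. The share in the same direction was 80.9% (95% Wilson interval 78.6 to 83, which treats probe sets as independent, as they are not). It was 79.7% for those higher and 81.8% for those lower in Ler. It was 64% when calls of any size between the controls were counted. Over the 487 probe sets higher in Ler the median difference was 1.33 between Ler and C24 and 1.25 between NdelYDA and yda. Over the 708 lower in Ler the medians were -1.43 and -1.08. For 378 of the 967 the test of the difference between both contrasts passed, beside 33.4% of all probe sets. Members were selected on their size between the controls, which favours a larger value there. The 2 contrasts correlated at r = 0.579 across all 17210 probe sets and at 0.804 across the 1195, as a description across probe sets, which are not independent replicates.

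**Figure D1:**
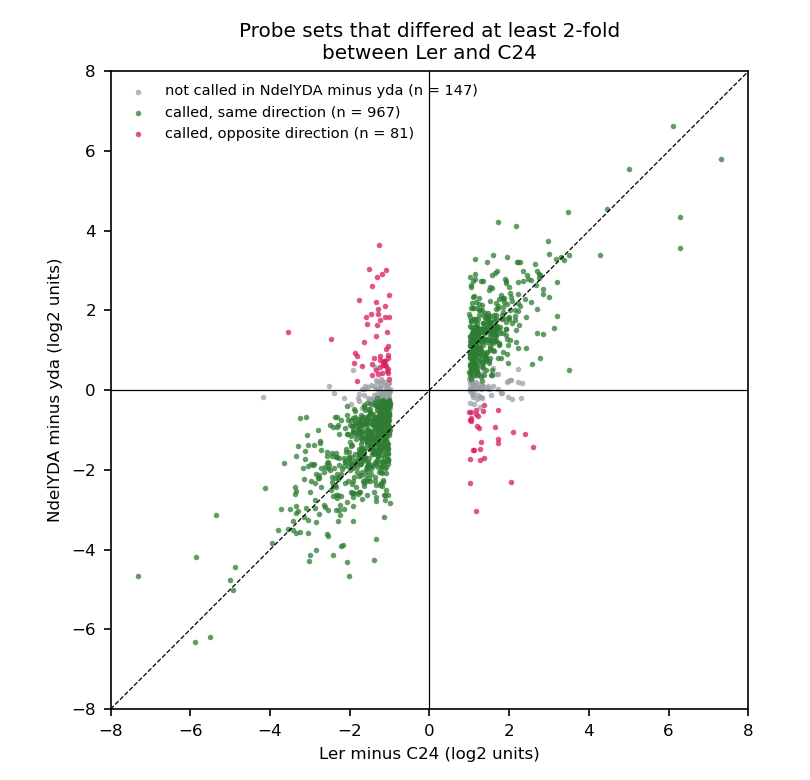
Each point is 1 of the 1195 probe sets called at a fold of at least 2 between Ler and C24, with Ler minus C24 on the horizontal axis and NdelYDA minus yda on the vertical axis, both in log2 units, and the dashed line marks equal differences. The 967 points in the same direction lie at the upper right and lower left, and the 81 points in the opposite direction at the upper left and lower right.

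Among probe sets with 1 gene in the platform annotation, the largest excess in Ler was that of AT5G47980. This gene encodes a BAHD-type acyltransferase in the thalianol triterpene cluster. A probe set outside that class had a larger excess in Ler, so the ranking holds for annotated genes only. The intensity of AT5G47980 was 2072.5, 2184.2 and 2182.8 in Ler, against 19, 8.7 and 9 in C24. All C24 arrays lay below their 30th percentile. The difference was 6.28 ± 0.21 (SE; adjusted p = 5.2e-12). NdelYDA arrays held 492.6 to 557.5 and yda arrays 3.9 to 26.9. The difference between the mutants, 4.35, was smaller by 1.93 (adjusted p = 7.8e-05 for the difference of differences). A neighbouring acyltransferase of the same family, AT5G47950, had 436.7, 401.2 and 461.6 in Ler and 280.7, 277 and 185 in C24. Its difference was 0.79 (adjusted p = 0.00022), and it did not differ by the test between NdelYDA and yda (0.03, adjusted p = 0.85). Of 8 listed loci of triterpene clusters, only 2 had a probe set in the annotation, so these genes do not describe the cluster.

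AOP3, the 2-oxoglutarate-dependent dioxygenase that makes hydroxyalkyl glucosinolates in Ler-type plants, had 1326.5, 1433.3 and 1378.3 in Ler and 16.6, 33.4 and 35.8 in C24. The difference was 5.0 ± 0.23 (adjusted p = 1.3e-10). The 4 NdelYDA arrays lay at 1665.7 to 1780.7 and the 4 yda arrays at 7 to 33.8, a difference of 5.55 that was not separable from that of the controls (adjusted p = 0.18). AOP1, its neighbour in the gene order and family, had 698.5, 648.8 and 604 in Ler and 258.3, 291.9 and 276.1 in C24, a difference of 1.19 (adjusted p = 1.2e-07), and 1.28 between the mutants. For both genes every array of Ler and NdelYDA was above every array of C24 and yda.

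AT1G23960 had 1133.1, 1151.3 and 1253.9 in Ler and 43.7, 45.2 and 27.5 in C24 (difference 4.46, adjusted p = 2.4e-09) and 4.54 between the mutants. The alkaline ceramidase gene ATCES1, which acts in sphingolipid breakdown, had 1280.6, 1299.5 and 1411.5 in Ler against 76.1, 125.5 and 151 in C24, with differences of 3.38 between the controls and 3.26 between the mutants. The serine carboxypeptidase-like gene scpl42 had 655.6, 537.2 and 547.8 in Ler and 51.5, 57.8 and 70.8 in C24. Its difference was 2.97 between the controls and 3.74 between the mutants. In each of these 3 genes every array of Ler and NdelYDA was above every array of C24 and yda.

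hemb2, a second gene for porphobilinogen synthase of the tetrapyrrole pathway, went another way. Its intensity was 1047.5, 1092.9 and 1026.1 in Ler and 69.2, 72.1 and 94.8 in C24, a difference of 3.51 (adjusted p = 1.4e-10). NdelYDA arrays held only 110.4 to 135 and yda arrays 56.8 to 104.5, a difference of 0.51 (adjusted p = 0.0049). The difference of differences was 3.00 (adjusted p = 6.5e-08). hemb2 was thus high in Ler alone among the 4 groups. Among probe sets of 1 gene, 6 others were within the 12 with the largest excess in Ler. They were AT2G14460, AT4G19240, AT2G04800, AT1G12320, AT3G01260 (an aldose 1-epimerase family gene) and AT1G66660 (a SINA-like ubiquitin ligase family gene). Their differences were 3.00 to 3.49, and all 6 were called in the same direction between NdelYDA and yda.

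The largest deficit in Ler was that of AT1G66100, a gene of the thionin family of small antimicrobial peptides. Its intensity was 30.2, 31.5 and 35.9 in Ler, against 8353.6, 7660 and 7063 in C24, where it was among the strong signals of the array. The difference was -7.31 ± 0.1 (adjusted p = 7.0e-17). NdelYDA held 48.9 to 65 and yda 1673.6 to 2007, so the difference between the mutants was -4.65, smaller in size (difference of differences -2.66, adjusted p = 2.0e-09). A second thionin, THI2.2, had 662.3, 541 and 622.8 in Ler and 8243.4, 8918.5 and 8852.4 in C24. Its difference was -3.80 between the controls and -3.51 between the mutants. The list of thionins and defensins, built from gene symbols and so without AT1G66100, had 9 tested members, of which 2 were lower in Ler (THI2.2 and LCR69, at -0.26) and 0 higher. Over all probe sets, 16.2% were lower and 21.0% higher. The list's median was -0.20, beside 0.06 over all probe sets.

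AT2G25450 encodes the 2-oxoglutarate-dependent dioxygenase known as GSL-OH, which hydroxylates alkenyl glucosinolates. It had 6.8, 30.3 and 27.3 in Ler and 1074.2, 1436.3 and 1987.9 in C24. The difference was -5.36 ± 0.24 (adjusted p = 8.4e-11). NdelYDA arrays were at 93.3 to 136.6, above the Ler arrays, and yda arrays at 1044.7 to 1208.3. The difference between the mutants was -3.12.

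AT2G25510, a gene of unknown function, had 131.3, 139.8 and 176.6 in Ler and 8100, 7913.5 and 6323.4 in C24 (-5.50, and -6.19 between the mutants). AT2G01090, a hinge protein of mitochondrial complex III, had 20.4, 34 and 29.2 in Ler and 731, 625.7 and 632.2 in C24 (-3.96, and -3.84 between the mutants). ZW9, which encodes a TRAF-like protein, had 586.6, 577.9 and 665.2 in Ler and 6734.5, 7023.1 and 6424.9 in C24 (-3.43, and -3.50). No Ler or NdelYDA array reached any array of C24 or yda in these genes. For AT2G25510 the difference between the mutants was the larger by the test (difference of differences 0.69, adjusted p = 0.0072), and for the other two the test did not pass. The BEACH-domain gene AT3G60920 (-3.51) and AT4G29200 (-5.00) followed the same order.

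**Figure D2:**
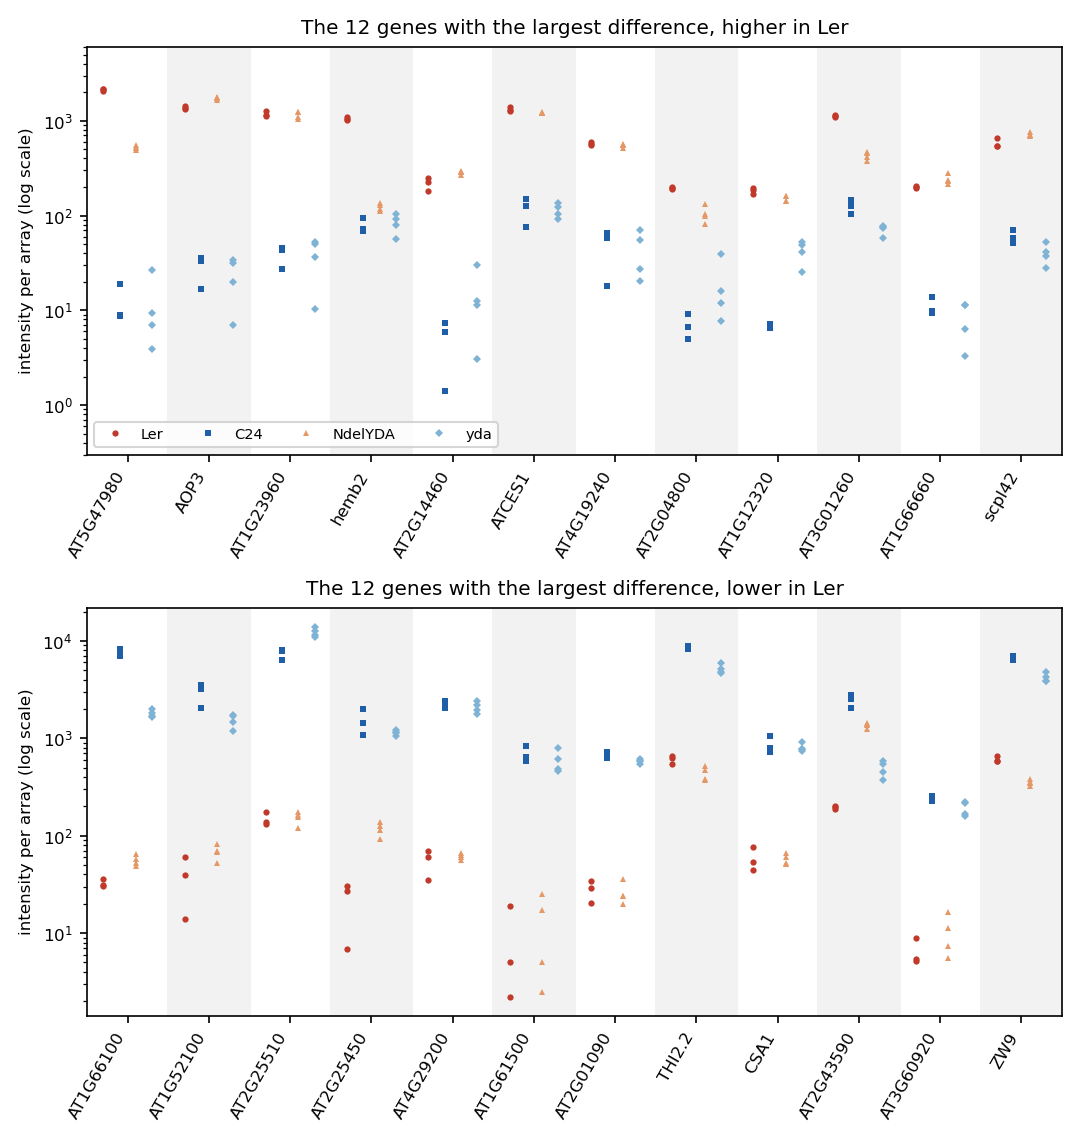
Intensity on each array (log axis) for the 12 genes with the largest excess in Ler (upper panel) and the 12 with the largest deficit (lower panel), with 3 points for Ler, 3 for C24, 4 for NdelYDA and 4 for yda. In most genes NdelYDA lies with Ler and yda with C24, whereas hemb2 is high in Ler only and AT2G43590 is higher in NdelYDA than in yda.

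Some probe sets were high in 1 control and near the bottom of the array in the other. In 17 probe sets all Ler arrays lay above their median and all C24 arrays below their 30th percentile, and in 31 the pattern was the reverse. Of the 17, 11 were above the median on all NdelYDA arrays and 14 below the 30th percentile on all yda arrays, and 10 did both. Of the 31, 24 were high on all yda arrays and 18 low on all NdelYDA arrays, and 13 did both. Only 2 of the 17 were low on all NdelYDA arrays, and 1 of the 31 on all yda arrays. The counts depend on the percentiles chosen: with the 20th and 60th percentiles they were 3 and 4. The shares of all probe sets that met each condition in the mutants are not given here, so the mutant counts are a description.

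The glucosinolate pathway had 7 tested genes, of which 2 were higher and 4 lower in Ler, beside 21.0% higher and 16.2% lower over all probe sets. These 7 are a small part of the pathway. All 6 were called in the same direction between NdelYDA and yda. Beside AOP3, AOP1 and AT2G25450, the lower genes were GTR1, a glucosinolate importer of the NRT1/PTR family, BCAT4, the aminotransferase that starts methionine chain elongation, and UGT74B1, which glucosylates the core structure. GTR1 had 625.1, 633.9 and 662.9 in Ler and 1956.2, 1616.9 and 2340.1 in C24 (-1.58, adjusted p = 1.1e-08). BCAT4 had 2449.9, 2582.7 and 2454.6 in Ler and 3816, 4143.1 and 4285.8 in C24 (-0.70, adjusted p = 1.1e-07). UGT74B1 differed by -0.49 (adjusted p = 3.1e-05). The arrays did not overlap in any of the 3. GTR2, the partner importer, differed by 0.15 and did not pass the test (adjusted p = 0.13).

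UDP-glycosyltransferases, which attach sugars to small molecules, were split. Of 39 tested, 10 were higher and 13 lower in Ler, with 5 higher and 1 lower at a fold of at least 2, and the median was -0.14. Over all probe sets, 21.0% were higher and 16.2% lower, and 2.83% and 4.11% at that fold. One of the 5, UGT72E3 (1.47), passed the filter on low values only through the 3 Ler arrays, so it could be called only if it was high in Ler. UGT78D1, which adds rhamnose to flavonols, was at 183, 246.6 and 261.1 in Ler and at 26.4, 65.1 and 20.5 in C24. The difference was 2.28 (adjusted p = 7.1e-06) and 3.22 between the mutants, where yda arrays lay at 2.6 to 12.7. UGT73B4, known as a pathogen- and xenobiotic-responsive enzyme, had 230.9, 229.9 and 216.1 in Ler and 41.7, 56.5 and 86.1 in C24 (1.68, and 2.03 between the mutants). UGT85A2 had 1184.6, 1230.9 and 1244.9 in Ler and 384.4, 380.7 and 442.5 in C24 (1.57, and 1.25). UGT88A1 was lower, at -0.63 (1255.1, 1223.9 and 1317.4 in Ler; 2089.8, 1995.5 and 1812.1 in C24), and was higher in NdelYDA than in yda by 0.42 (adjusted p = 1.2e-05). Of the 23 called members, 16 were called in the same direction between the mutants and 3 in the opposite direction.

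Of 5 tested flavonoid genes, UGT78D1 was higher and DFR and UGT78D2 were lower in Ler, beside 21.0% and 16.2% of all probe sets. DFR, which reduces dihydroflavonols on the way to anthocyanins, had 137.4, 134.8 and 108.8 in Ler and 190.4, 206.2 and 166.3 in C24 (-0.51, adjusted p = 0.003). Between the mutants DFR was higher in NdelYDA by 1.01 (adjusted p = 4.1e-07), with 397.5 to 439.7 in NdelYDA and 176.1 to 235.3 in yda.

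Of 11 glutathione transferases tested, 4 were higher and 5 lower in Ler, beside 21.0% and 16.2% of all probe sets. GSTU25 had 1044, 1130.6 and 1243 in Ler and 320.7, 414.7 and 410.7 in C24 (1.54, adjusted p = 2.1e-08), and the difference between the mutants was 1.53. GSTU16 had 120.2, 85.3 and 111.1 in Ler and 577.3, 663.7 and 478.9 in C24 (-2.28, adjusted p = 2.1e-09), against -1.10 between the mutants. GSTU20, one of the strong signals, had 4344.5, 4377.4 and 4077.4 in Ler and 5867.8, 7061 and 6426.6 in C24 (-0.59). The arrays of the controls did not overlap in these 3 genes.

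Of 237 listed cytochrome P450 loci, only 24 had a probe set in the annotation and 15 were tested, so they do not describe the family. Of these 15, mostly of the CYP71B subfamily, 7 were lower and 3 higher in Ler, beside 16.2% and 21.0% of all probe sets. CYP71B24, CYP71B36 and CYP71B26 were lower by at least 2-fold, at -1.46, -1.36 and -1.03. CYP71B26 had 100.8, 82.8 and 95.5 in Ler and 217.7, 225.8 and 177.7 in C24. The 3 P450 genes that were higher differed by at most 0.55, and each lost its call when certain single control arrays were left out, so that only 1 of the 3 remained without C24 replicate 1, Ler replicate 1 or Ler replicate 3. Of the 10 called members, 5 kept their direction between NdelYDA and yda and 4 were called the other way.

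Of the gene lists, that of resistance genes held the most called members, but it was also the list with the most tested members. Its share called was below that of several smaller lists. Among these were the early response (100%), glucosinolate (85.7%), glutathione transferase (81.8%) and S-domain kinase (71.4%) lists. Of 72 tested resistance genes, which encode NLR proteins or TIR-domain proteins, 30 were lower and 11 higher in Ler, which is 56.9% called beside 37.2% over all probe sets. At a fold of at least 2, 20 were lower and 5 higher, beside 4.11% and 2.83% of all probe sets. The list median was -0.15, since the 31 genes not called lay on both sides of 0. Of the 41 called genes, 39 were called in the same direction between NdelYDA and yda and 0 in the opposite direction. The list was written from memory of published loci after 6 of its members had been noticed in the data. Without these 6, 25 of 66 were lower and 10 higher, with 15 and 4 at a fold of at least 2. A stricter filter on low values, which tests fewer genes, left 18 lower and 7 higher.

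CSA1, a TIR-type NLR receptor that takes part in growth control by shade and in immunity, had 76.5, 54.2 and 44.9 in Ler and 1048.3, 796.7 and 719.4 in C24. The difference was -3.55 ± 0.16 (adjusted p = 1.1e-10), with -3.47 between the mutants. AT5G63020, a coiled-coil type NLR gene, had 16.7, 10 and 12.9 in Ler and 238, 144.3 and 227.2 in C24 (-2.88, and -2.76 between the mutants). AT1G63880, a TIR-type NLR gene, had 85.5, 82.8 and 78.7 in Ler and 550, 361.9 and 460 in C24 (-2.25, and -2.87). CW9 had 129.3, 129.3 and 114.1 in Ler and 420.2, 454 and 443.6 in C24 (-1.70, and -1.05). In these genes no array of Ler reached any array of C24.

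Among the 11 genes that ran the other way, AT5G05400 had 128.3, 133.2 and 119.8 in Ler and 7.4, 8.9 and 17.6 in C24 (2.41, adjusted p = 4.9e-08). AT1G72840 had 89.3, 105.7 and 111.5 in Ler and 7.6, 22.7 and 16.8 in C24 (1.92). AT4G36140 had 156.1, 144.4 and 148.4 in Ler and 30.2, 51.9 and 44.2 in C24 (1.53). AT5G40060 and AT5G11250 differed by 1.19 and 1.17. All 5 were higher in NdelYDA than in yda too, by 1.07 to 1.70.

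**Figure D3:**
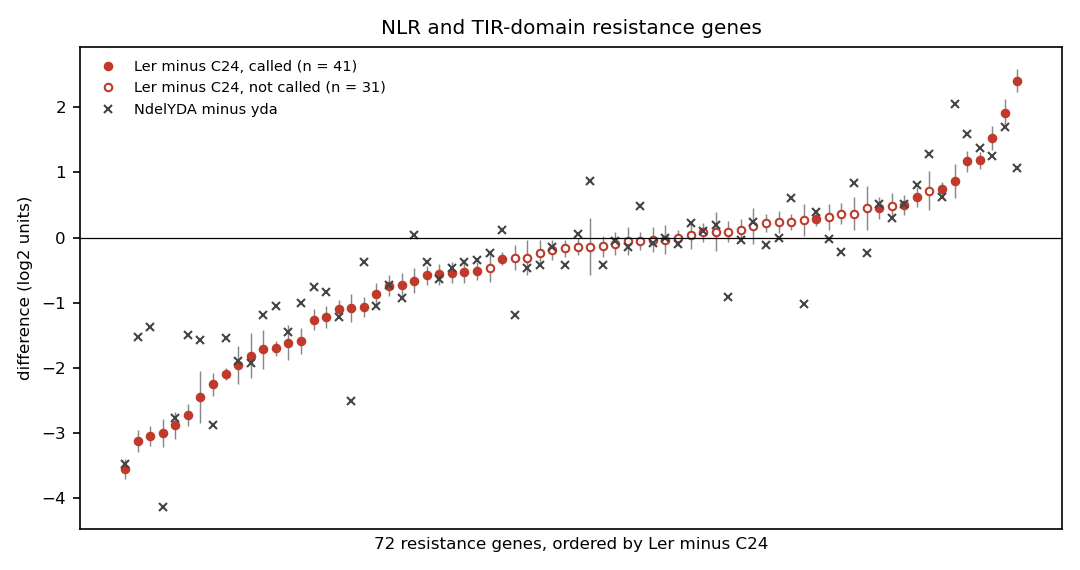
Differences in log2 units for 72 resistance genes, ordered by Ler minus C24, with circles for Ler minus C24 (filled where called, bars of 1 standard error) and crosses for NdelYDA minus yda. Of the 41 called genes, 30 lie below 0 and 11 above, and the crosses of 39 of them were called on the same side.

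S-domain receptor kinases carry a lectin-like outer domain related to the self-incompatibility receptors of Brassica. Of 14 tested, 9 were lower in Ler and 1 was higher, with 4 lower at a fold of at least 2 and a median of -0.69. Over all probe sets, 16.2% were lower, 21.0% higher and 4.11% lower at that fold. The 1 higher call did not hold without C24 replicate 2, C24 replicate 3, Ler replicate 1 or Ler replicate 2. AT1G61500 had 2.2, 5.1 and 19.1 in Ler and 835.7, 641.3 and 587.5 in C24, a difference of -4.87 ± 0.3 (adjusted p = 5.0e-09), and -4.44 between the mutants. AT1G61360, of the same stretch of the gene order, had 152.9, 153.2 and 167.5 in Ler and 398.9, 438.4 and 402.5 in C24 (-1.30, and -1.08 between the mutants). AT4G27300 had 393.7, 403.8 and 394.3 in Ler and 1061.6, 859.2 and 959.7 in C24 (-1.23), but did not pass between NdelYDA and yda (-0.08, adjusted p = 0.38), and the difference of differences was -1.15 (adjusted p = 3.0e-06).

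Jacalin-related lectins, carbohydrate-binding proteins of which several sit in the myrosinase complex, showed no common direction. Of 15 tested, 5 were higher and 4 lower in Ler, beside 21.0% and 16.2% of all probe sets, and between the mutants 4 of these 9 were called in the same and 5 in the opposite direction. AT1G52100 had 60.7, 39.1 and 13.8 in Ler and 2068.3, 3558 and 3231.6 in C24 (-5.85, and -4.19 between the mutants). AT1G52050 and AT1G52060, near it in the gene order, were higher in Ler. AT1G52050 had 1195.4, 1010.3 and 1265.9 in Ler and 260.4, 370 and 409.5 in C24 (1.71), and AT1G52060 had 1469, 1563 and 1685.9 in Ler and 375.3, 822.4 and 798 in C24 (1.3). Both were lower in NdelYDA than in yda, by -0.49 and -1.30. AT3G21380 had 202.1, 245.8 and 192.4 in Ler and 1122.1, 577.1 and 397.1 in C24 (-1.52), whereas NdelYDA held 1082.9 to 1237.7 and yda 108.2 to 144.5 (3.05). Its difference of differences, -4.56, was among the largest of the named genes (adjusted p = 5.7e-08).

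Genes of the early response to touch, wounding and elicitors, which are known for quick and short-lived induction, were lower in Ler. All 14 tested members were called lower, beside 16.2% of all probe sets, and 12 of them at a fold of at least 2, beside 4.11%. Their median was -1.41 beside 0.06 over all probe sets, and in all 14 the arrays of Ler and C24 did not overlap, as in 46.2% of all probe sets. Between NdelYDA and yda, 10 of the 14 were called lower, beside 25.7% of all probe sets, 0 higher, and the median was -0.74. The list was written after values had been seen. Without its 4 members that were seen first, 10 of 10 were lower in Ler and 6 of 10 lower in NdelYDA than in yda.

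AT2G22880, of the VQ motif family that binds WRKY factors, had 26.4, 13.4 and 90.5 in Ler and 479, 529.9 and 534.2 in C24 (-3.38, adjusted p = 2.7e-07). AT4G29780, a nuclease-like gene, had 373.3, 353.8 and 679.4 in Ler and 2884.5, 2419.1 and 4285.6 in C24 (-2.75). CML38, a calmodulin-like calcium sensor, had 120.5, 135.9 and 259.6 in Ler and 867.7, 872.1 and 1548.5 in C24 (-2.58). The order of the arrays recurred from gene to gene. Ler replicate 3 was the highest of the Ler arrays for 12 of the 14 genes, and C24 replicate 3 the highest of the C24 arrays for 8.

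STZ, a zinc finger repressor of the stress response, had 1151.6, 1137.5 and 1536.2 in Ler and 4866, 4466.3 and 4827.2 in C24, a difference of -1.89 ± 0.13 (adjusted p = 1.6e-08). The mutants differed by -0.46, with 3432.1 to 3770.3 in NdelYDA and 4060.5 to 5936.4 in yda, both well above Ler. WRKY53, which promotes leaf senescence and defence, had 59.9, 58.9 and 84.4 in Ler and 202.9, 195.9 and 173.3 in C24 (-1.31), with 336 to 352.4 in NdelYDA and 498.1 to 744.8 in yda. AR781 had 474.4, 465.1 and 653 in Ler and 1538.3, 1210.7 and 1289.1 in C24 (-1.33), and did not pass between the mutants (0.05, adjusted p = 0.73), both of which were at 1338.1 or more. In these 3 genes Ler was the lowest of the 4 groups.

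**Figure D4:**
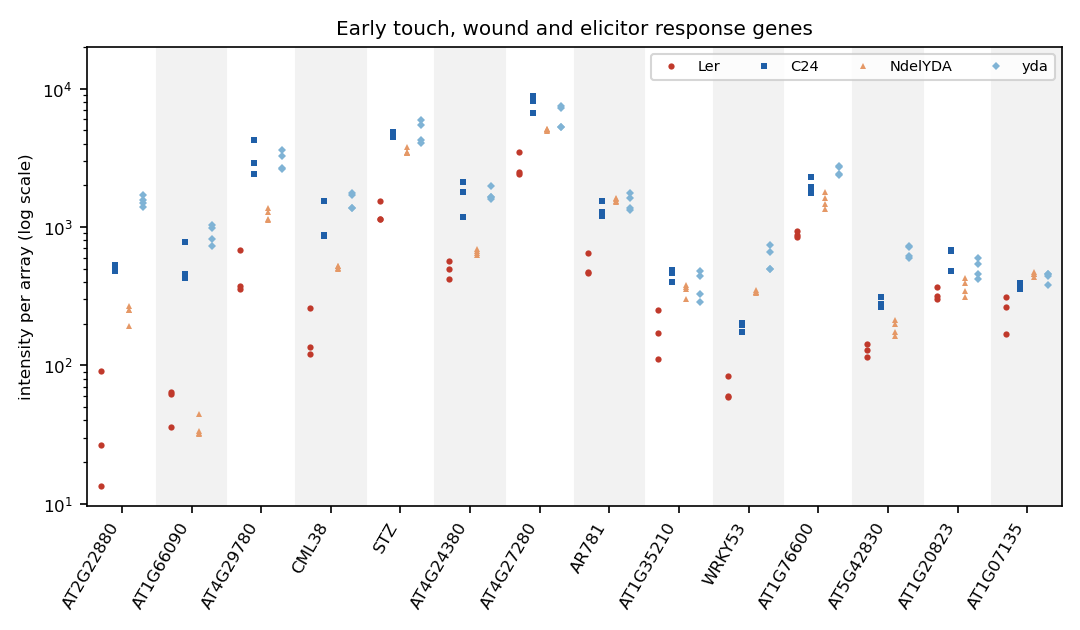
Intensity on each array (log axis) for the 14 early response genes, ordered by Ler minus C24, with 3 points for Ler, 3 for C24, 4 for NdelYDA and 4 for yda. The Ler points lie below the C24 points in every gene, and in several (STZ, WRKY53, AR781) the NdelYDA points lie well above Ler.

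Only 6 of 67 listed WRKY factors had a probe set in the annotation. Of the 5 tested, WRKY53 and WRKY22 were lower in Ler and WRKY47 was higher. Over all probe sets, 16.2% were lower and 21.0% higher. WRKY22, which acts downstream of MAP kinases in immune signalling, had 264.9, 265.9 and 294.8 in Ler and 535.7, 549.3 and 741.7 in C24 (-1.09). WRKY47 had 365.9, 356.7 and 352.9 in Ler and 249.4, 231.1 and 221.6 in C24 (0.58). The 4 tested genes of jasmonate and ethylene defence, among them the defensin PDF1.2, gave 0 calls with limma, 0 at an unadjusted p under 0.05, and differences of -0.25 to 0.28.

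Only 13 of 80 listed auxin genes had a probe set in the annotation. Of the 6 tested, 4 were higher in Ler and 0 lower, beside 21.0% and 16.2% of all probe sets. GH3.3, which conjugates auxin to amino acids, had 514.6, 607.3 and 541.3 in Ler and 293.7, 379.5 and 372.3 in C24 (0.65, adjusted p = 0.00026), and ran the other way between the mutants (-1.94). IAA29, an auxin response repressor, had 342.3, 355.6 and 291.3 in Ler and 207, 199.2 and 125.5 in C24 (0.86, adjusted p = 0.0011). IAA18 and LBD16 differed by 0.32 and 0.40. IAA18 did not pass without C24 replicate 2 (adjusted p = 0.0674), C24 replicate 3 (0.0664), Ler replicate 2 (0.0899) or Ler replicate 3 (0.067), nor with arrays scaled to a common median (0.0672), and LBD16 without C24 replicate 3 (0.0709) or Ler replicate 1 (0.0621). Over all alternatives the adjusted p ran between 0.0103 and 0.0899 for IAA18 and between 0.00895 and 0.0709 for LBD16.

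Among 10 MADS-box family genes, AGL87 and AGL42 were higher in Ler and 0 were lower, beside 21.0% and 16.2% of all probe sets. AGL87 had 496.1, 431 and 566.4 in Ler and 73.3, 135.1 and 88.6 in C24 (2.19, adjusted p = 3.0e-08), and 3.22 between the mutants. AGL42, a floral senescence and flowering regulator, had 98.6, 108.5 and 95.5 in Ler and 53.4, 33.8 and 29.4 in C24 (1.11, adjusted p = 0.0041). It passed the filter on low values only through the 3 Ler arrays, so it could be called only if it differed. Of 6 flowering time genes, SNZ, an AP2-type floral repressor, had 140.2, 150.4 and 119 in Ler and 170.7, 315.2 and 273.4 in C24 (-0.78, adjusted p = 0.0033). GI, a clock-linked activator of flowering, was at -0.29 (adjusted p = 0.021, and 0.0853, 0.0644 and 0.0591 without C24 replicate 3, Ler replicate 1 and Ler replicate 3, within 0.0103 to 0.0853 over all alternatives).

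Beside the lists that follow, 37.2% of all probe sets were called, 21.0% higher and 16.2% lower in Ler. The 7 tested photosystem and antenna genes had 1 call, LHCB4.3 at -0.62, and a median of -0.12. The 3 tested carbon fixation genes had 0 calls with limma and 0 at an unadjusted p under 0.05, with differences of -0.14 to -0.07. Of 6 histone genes, HTB2 and HTB4, both of the H2B class, were higher in Ler by 0.86 and 0.49, and of 7 tubulins 2 were higher and 1 lower, with differences of -0.19 to 0.27 over the 7. The lower tubulin, TUB6, did not pass without C24 replicate 1 or 3, Ler replicate 1 or 2, yda replicate 1 or any one NdelYDA array, with an adjusted p of 0.0143 to 0.163 over all alternatives. Of the higher ones, TUB7 did not pass without C24 replicate 2 or 3 or Ler replicate 1 or 2, within 0.00905 to 0.0808. The 3 root markers had 0 calls with limma and 0 at an unadjusted p under 0.05, with the root beta-glucosidase PYK10 at 10343, 11637.7 and 10954 in Ler and 10841.3, 11728.7 and 11540.2 in C24. Of the cold and abscisic acid genes other than STZ, the dehydrin LTI30 was at -0.58 and COR47, another dehydrin, at 0.24. The last did not pass when arrays were scaled to a common median (adjusted p = 0.0536, within 0.00178 to 0.0536 over all alternatives). The only tested member of the light signalling list was the bZIP factor HYH, at -1.18 (118.8, 101.1 and 143.9 in Ler, and 254.4, 308.8 and 319.1 in C24). Both of the 2 tested trichome markers were higher in Ler. SIM, an inhibitor of the cell cycle in trichomes, was at 0.81 (855.4, 1043.3 and 1188.9 in Ler, and 543.9, 809.1 and 427.4 in C24), and the other marker at 0.63. HYH and SIM were called in the same direction between the mutants, at -0.67 and 0.62, and the other trichome marker was not called there.

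Markers of the stomatal lineage were of interest because the study's mutants differ in it. SPCH, the bHLH factor that starts the lineage, had 103.4, 139.7 and 123.1 in Ler and 15.5, 23.6 and 41 in C24. The difference was 1.73 ± 0.26 (adjusted p = 6.6e-05), and all C24 arrays were below their 30th percentile. CHX20, a cation exchanger of guard cells, had 181.8, 84.7 and 145.5 in Ler and 4.3, 11.5 and 10 in C24 (2.60 ± 0.33, adjusted p = 1.2e-05). It did not pass the filter on low values without Ler replicate 1, Ler replicate 3 or yda replicate 4. Neither SPCH nor CHX20 passed a stricter filter on low values, so neither was tested in that setting. FAMA (symbol FMA), which drives the last step of guard cell formation, had 261.3, 252.6 and 248.6 in Ler and 133, 204.2 and 222.6 in C24 (0.44, adjusted p = 0.037). FAMA did not pass without C24 replicate 1 (adjusted p = 0.181), Ler replicate 1 (0.0956), Ler replicate 2 (0.0784) or Ler replicate 3 (0.072), nor with arrays scaled to a common median (0.0621) or quantile normalized (0.0563), within 0.0143 to 0.181 over all alternatives. Of the other guard cell markers, AT5G06970 was higher in Ler by 0.25 (adjusted p = 0.02, within 0.0101 to 0.0655 over all alternatives), and was at 0.04 between the mutants (adjusted p = 0.62). AT1G22690, AT4G14480 and AT2G16630 differed by 0.40, 0.27 and -0.11 and did not pass. STOMAGEN, a peptide from the mesophyll that promotes stomata, was at 0.02 (adjusted p = 0.92). In each of the guard cell and stomatal lineage lists, 2 of 5 tested members were higher and 0 lower, beside 21.0% and 16.2% of all probe sets. C24 replicate 1 was the lowest C24 array for FAMA, AT1G22690 (1369.2, against 2013.2 and 2723.2), AT4G14480 (125.8, against 199.8 and 199.7) and AT2G16630 (271.8, against 505.5 and 569.2), and the highest for STOMAGEN (1315.6, against 880 and 707.4). The part of that array in these differences was not tested beyond the values without it. Between the mutants, where labels describe NdelYDA as without stomata, SPCH, CHX20 and FAMA were lower in NdelYDA by -1.22, -1.43 and -1.78.

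Of 9250 tested genes with a place in the gene order, 613 were called at a fold of at least 2. Neighbouring genes with differences of the same direction were found in 4 runs of 3 genes and 33 pairs, which hold 78 of the 613. How many runs and pairs such a share of called genes would give without regard to place was not tested. In 25 of these 37 the members were lower in Ler and in 12 higher, beside 708 lower and 487 higher of all 1195 probe sets called at that fold. In 31 of the 37 all members were called in the same direction between NdelYDA and yda, beside 80.9% of the 1195 single probe sets. These counts are therefore a description and not a trait of neighbouring genes. Other genes, tested or not, may stand between the members, up to 1 at each step. The gene table was used for order alone. The largest pair was that of the thionin AT1G66100 and AT1G66090, a TIR-domain gene of both the resistance and the early response lists, which had 62.1, 35.7 and 64.7 in Ler and 429.9, 459 and 776.8 in C24 (-3.0, and -4.13 between the mutants). AT5G52750 and AT5G52760, which encode proteins with a heavy-metal-associated domain, differed by -2.89 and -3.16, and by -1.86 and -1.96 between the mutants. In each of these pairs both members were called lower in NdelYDA than in yda.

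Among the runs of 3, the one with the largest differences held AT1G72900, AT1G72920 and AT1G72940, TIR-domain genes of the resistance list. AT1G72900 had 197.7, 211.9 and 316.9 in Ler and 1849, 1910.6 and 2509.7 in C24 (-3.04). AT1G72920 had 152.2, 133.4 and 242.8 in Ler and 1633.3, 1360.3 and 1880.6 in C24 (-3.12). AT1G72940 had 179.8, 184.7 and 322.5 in Ler and 1550, 1301.6 and 1818.6 in C24 (-2.72). In all 3, Ler replicate 3 was the highest Ler array, and NdelYDA, at 568.7 to 1255, lay between Ler and yda. The differences between the mutants, at -1.37 to -1.52, were smaller in size by the test (adjusted p = 7.6e-06, 4.4e-05 and 0.00049). The nearby AT1G72840 ran the other way, as given above.

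A further run held OPCL1, the CoA ligase that activates a jasmonate precursor, between AT1G20490 and AT1G20520. OPCL1 had 320.7, 402.6 and 358.2 in Ler and 1729, 1439.2 and 2379.6 in C24 (-2.28, and -2.17 between the mutants). AT1G20490 was at -1.17. AT1G20520 was at -1.26 with overlapping arrays, and did not pass without C24 replicate 3 (adjusted p = 0.0547) or Ler replicate 1 (0.0677), within 0.00283 to 0.0677 over all alternatives. Another held AT4G27652, AT4G27654 and AT4G27657, at -1.53, -2.26 and -1.70. The last was higher in Ler and held AT3G45680, AT3G45700 and AT3G45710 of the NRT1/PTR transporter family. AT3G45710 had 1325.7, 1297.6 and 1236.8 in Ler and 208.9, 521.3 and 363.1 in C24 (1.86, and 2.31 between the mutants). AT3G45680 had 526.3, 528 and 501.3 in Ler and 265.7, 245.7 and 183.5 in C24 (1.13), and did not pass between the mutants (0.15, adjusted p = 0.53), where both groups were at or below 154.

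A minority of differences turned round in the mutants. Of the 1195 probe sets that differed at least 2-fold between Ler and C24, 81 were called the other way between NdelYDA and yda. Among the 634 of them with 1 gene, this held for 44, of which 18 were higher in Ler. The largest was AT2G43590, a chitinase family gene. It had 201.9, 187.8 and 198.2 in Ler and 2041.8, 2559.2 and 2796.5 in C24 (-3.54 ± 0.14, adjusted p = 2.5e-11), whereas NdelYDA held 1253.8 to 1426 and yda 372.5 to 588.9 (1.46). The difference of differences was -5.00 (adjusted p = 1.1e-10). AT1G12130, a flavin-containing monooxygenase family gene, had 5.5, 8.5 and 7.4 in Ler and 160.7, 105 and 85.1 in C24 (-2.48), and 91.8 to 130.9 in NdelYDA and 28.1 to 38.9 in yda (1.29). ATSPS4F, a sucrose phosphate synthase, had 393.8, 424.1 and 400.3 in Ler and 1558.8, 1343.5 and 1493.4 in C24 (-1.81), and 645.1 to 694.6 in NdelYDA and 515.7 to 676.3 in yda (0.22, adjusted p = 0.025), where the arrays overlapped.

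Among those higher in Ler, AT5G04120 had 1519.5, 1547.4 and 1473.6 in Ler and 359, 306.7 and 185.1 in C24 (2.40). In the mutants it was far lower, at 11.8 to 22.2 in NdelYDA and 41.8 to 73.9 in yda (-1.10). AT1G11850 had 235.1, 309.9 and 270.3 in Ler and 46.8, 61.9 and 44.3 in C24 (2.1), and 34.6 to 101.9 in NdelYDA and 143.1 to 191.6 in yda (-1.04). AT3G49900, SPCH and CHX20 belong to the same set. On the other side, AT4G36700 (a cupin family gene), AT5G50335 and AT5G60760 were lower in Ler by -1.88, -1.89 and -1.76 and higher in NdelYDA by 0.93, 0.68 and 2.27. Since the rule for this set used both contrasts, their opposite signs are a description.

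**Figure D5:**
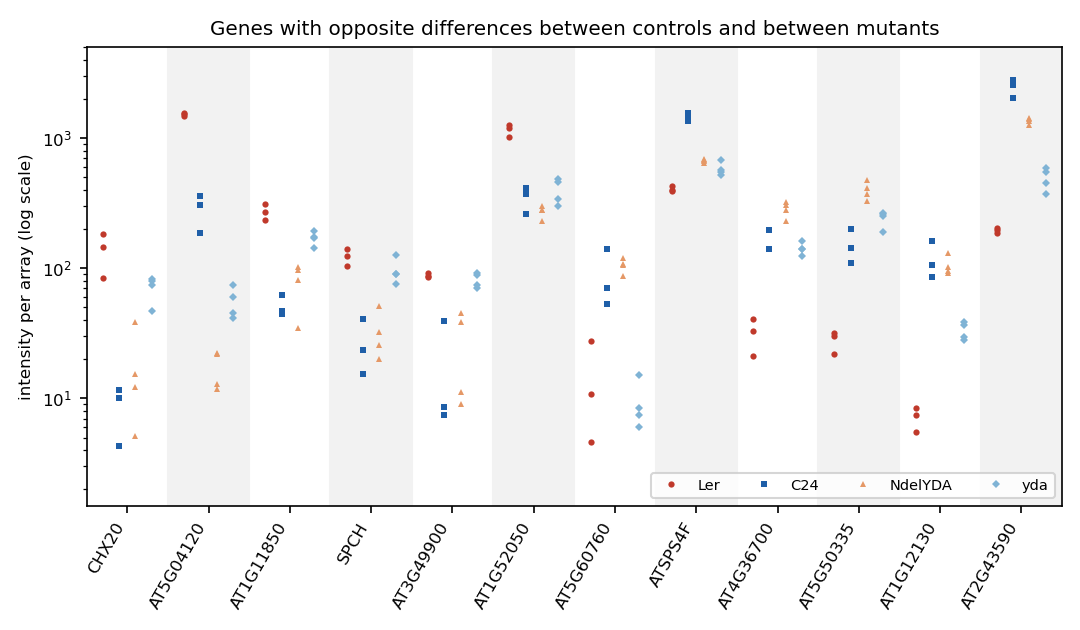
Intensity on each array (log axis) for 12 genes whose Ler minus C24 and NdelYDA minus yda differences were called in opposite directions, 6 higher in Ler on the left and 6 lower on the right, with 3 points for Ler, 3 for C24, 4 for NdelYDA and 4 for yda. Ler is above C24 in the genes on the left, where NdelYDA is on average below yda, and the order is reversed on the right, with overlap of the mutant arrays in ATSPS4F.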

How the data were processed

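RNA of whole seedlings was measured on 14 one-colour arrays (3 Ler, 3 C24, 4 NdelYDA, 4 yda). The deposited values are linear probe set intensities, judged from the values themselves. On each array the mean without the lowest and highest 2% was 500, as a global scaling leaves it. The software the authors used to make the intensity values is not given in the sources used here, and no detection calls were used. Precision is limited by the number of arrays. No 2 arrays held identical values.

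Of 22810 probe sets, 64 controls were left out, 13513 had 1 gene in the platform annotation, 503 had several and 8730 had none there. Entrez identifiers matched 13436 to locus tags of the TAIR10.1 gene table, used for names and gene order.

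Values were tested as log2(intensity + 16) for the 17210 probe sets whose signal passed the 30th percentile of an array in 3 or more of the 14. Array medians lay within 0.144 log2 units, and no further scaling was applied. A fit of 4 group means to all arrays used limma 3.58.1 in R 4.3.3 (lmFit, eBayes with an intensity trend). Tests were two-sided with Benjamini-Hochberg adjustment over all 17210, and a call is an adjusted p under 0.05. The contrasts were Ler minus C24, NdelYDA minus yda and the difference of the 2. The code of the fit was run on simulated arrays that all had the spread of the Ler arrays, so that run says nothing about the spread in C24. A gene with several probe sets in a list was read from the one with the highest mean. Listed genes were tested only where the annotation named a probe set for them and its signal passed the filter. List counts therefore describe the tested members and not whole families.

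Members and gene lists were chosen with earlier results of these data known. The lists of resistance genes, S-domain kinases, jacalin-related lectins and early response genes were written from memory of published loci after values had been seen and were not checked against a source, so their counts support nothing by themselves. Symbols that the gene table gives to other proteins (a chitinase among the flavonoid genes, a pair of peptide deformylases among the defensins and 1 other) were removed after values had been seen. Named genes are, among probe sets of 1 gene, the 12 largest differences each way without overlap. They include up to 4 called members each way of each list and the 6 largest each way that turned round in the mutants. All genes of the 4 runs of 3 and genes fixed by name were added. Of those fixed by name, AOP1, AOP3, AT2G25450, SPCH, FAMA and CHX20 had a tested probe set named in the platform annotation. The others had none, and may be among the 8730 probe sets without a gene there. Members named without a call, and AT5G47950, AT5G63020, AT1G63880, CW9, AT5G11250, AR781, HYH, SIM, AT5G52750 and AT5G52760, were chosen after their values were seen.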

Additional observations from a re-analysis of the deposited data

Results flagged for a closer look

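A test of the difference between the controls' and the mutants' contrasts passed for 67 of the 119 named genes, beside 33.4% of all probe sets. The named genes were chosen by their size between Ler and C24, by list, by run, by name, or, for 12, because they turned round in the mutants. For those 12 the choice fixed the difference of contrasts, and it is a description. AGL42 and UGT72E3 passed the filter on low values only through the Ler arrays, and all C24, NdelYDA and yda arrays were below their 30th percentile, so their smaller difference between the mutants was fixed by the filter. Each value is (Ler minus C24) minus (NdelYDA minus yda) in log2 units.

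Genes higher in Ler than in C24 but called lower in NdelYDA than in yda were CHX20 (4.03), AT5G04120 (3.49), AT1G11850 (3.14), AT3G49900 (3.03), SPCH (2.95), AT1G52060 (2.60), GH3.3 (2.59), FMA (2.23), AT1G52050 (2.21), CYP71B23 (2.13), AT5G35940 (1.67), JAL22 (1.11) and CYP51G2 (0.96).
Genes lower in Ler but called higher in NdelYDA were AT2G43590 (-5.00), AT3G21380 (-4.56), AT5G60760 (-4.03), AT1G12130 (-3.77), AT4G36700 (-2.81), AT5G50335 (-2.57), ATSPS4F (-2.03), DFR (-1.52), GSTU18 (-1.06), UGT88A1 (-1.05), LTI30 (-0.76) and GI (-0.55).
Genes higher in Ler whose difference between the mutants was smaller in size were hemb2 (3.00), AT5G47980 (1.93), AT1G12320 (1.57), AGL42 (1.46), UGT72E3 (1.37), AT2G04800 (1.35), AT5G05400 (1.34), GSTF4 (1.06), AT3G45680 (0.98), WRKY47 (0.67) and AT3G01260 (0.66).
Genes lower in Ler whose difference between the mutants was smaller in size were AT1G66100 (-2.66), AT2G25450 (-2.24), AT1G72900 (-1.67), AT1G52100 (-1.66), AT1G72920 (-1.60), AT4G29780 (-1.47), STZ (-1.42), AT4G27657 (-1.26), AT1G72940 (-1.22), GSTU16 (-1.18), AT4G27300 (-1.15), AT4G27652 (-1.07), CML38 (-1.02), SNZ (-0.93), AT1G52000 (-0.66), WRKY53 (-0.55), GTR1 (-0.51), LHCB4.3 (-0.45), TUB6 (-0.30) and AUR1 (-0.28).
Genes higher in Ler with a larger difference between the mutants were AGL87 (-1.03), scpl42 (-0.76), IAA18 (-0.58) and CYP71B34 (-0.44).
Genes lower in Ler with a larger difference between the mutants were AT1G66090 (1.12), WRKY22 (0.99), AT2G25510 (0.69), CYP71B26 (0.57), GSTU20 (0.53), JAL33 (0.45) and BCAT4 (0.43).

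In 8 of 238 groups of 4 mutant arrays tested, a single array stood apart from the rest, where chance gives about 1 in 20. Single arrays stood high in NdelYDA for STZ (3770.3), UGT78D2 (612.5) and AT1G66090 (44.8) and low for AGL42 (14). In yda they stood high for CYP71B24 (236.5) and CYP71B37 (157.7) and low for CYP71B34 (426.7) and AT3G01260 (58.5). The controls had 3 arrays a group and were not tested in this way.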

How the results depend on the processing

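The majority of calls turned round under median scaling, to 2892 higher and 3180 lower in Ler, against 3617 higher and 2782 lower as deposited. No other result computed changed its direction under the 23 alternative settings run. For the 119 named genes, 2611 of 2707 values kept their call and 96 lost it, in 17 genes: AT1G20520, AT1G34300, AT5G06970, AUR1, COR47, CYP51G2, CYP71B23, CYP71B34, FMA, GI, GSTL3, IAA18, JAL22, LBD16, TUB6, TUB7 and UGT85A4. Settings in which a gene failed the filter on low values gave no value and are not counted. With the stricter filter these genes were AGL42, AT1G12130, AT1G12320, AT1G20520, AT1G72840, AT2G04800, AT3G49900, AT4G11900, AT4G36140, AT5G05400 and AT5G28520. AT5G60760, CHX20, CYP51G2, CYP71B24, CYP71B37, SNZ, SPCH, UGT72E3, UGT76D1 and UGT76E12 failed it too. AGL42, CHX20 and UGT72E3 also failed the filter when certain single arrays were left out. The alternatives cover scaling, pseudocount, filter, array groups fitted, the intensity trend and leaving out each array. With a pseudocount of 64 in place of 16, 791 probe sets were called at a fold of at least 2, 291 of them higher in Ler, the share in the same direction between the mutants was 85.7%, and 22 pairs and runs of neighbours were left, 2 of them runs. That setting shrinks differences between low intensities by construction. The share was 76.1% with no filter on low values and 84% with a stricter one, which also left 24 pairs and runs. It was 64% for calls of any size. Leaving out single arrays gave shares of 78.4 to 83.6%. With no other gene allowed between members, 1 run of 3 was left. All-or-none counts at the 20th and 60th percentiles were 3 high in Ler and 4 high in C24. Among gene lists, the stricter filter, which tests fewer genes, left 18 resistance genes lower and 7 higher, and 4 P450 genes lower. The causes of the other changes were not tested. Same-numbered Ler and C24 arrays deviated from their group means with correlations of 0.16, 0.10 and 0.03, and those of NdelYDA and yda with -0.11 to 0.06. These correlations were low, and the samples were not treated as paired. Whether same-numbered arrays share a batch or harvest was not tested. With the replicate block, 6247 probe sets were called and 1197 at a fold of at least 2. Without detection calls, values below the 30th percentile have no firm order.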
